A study of Mus musculus with 9 samples.

Results

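The core regions are stretches of the mouse genome (build mm10) at which peaks of the histone deacetylases Hdac1 and Hdac2 coincided across cell lines. Peaks of 6 chromatin immunoprecipitation sequencing (ChIP-seq) lists were merged where they overlapped by at least 1 bp. A merged region was called core when it held a peak of all 3 Hdac1 lists and of the Hdac2 lists of the lines Bry and Hd2lox. The third Hdac2 list, of Hd1_loxlox, was not required. Of 24761 merged regions, 1552 (6.27%) met the rule. These numbers were chosen by the presence of peaks and are a description. The cells were haemogenic endothelium, the endothelium from which blood cells emerge, grown by differentiating mouse embryonic stem (ES) cells (strain C57BL/6) without treatment. The 3 ES lines were Bry, at passage 16 to 19, and Hd1_loxlox and Hd2lox, each at passage 25 to 30. The labels give no genotype beyond these line names. A line contributed 1 library per antibody and 1 of input, and input is not analysed here. Peak positions do not measure expression, so the labelled cell type was not checked against its markers.

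Hdac1 and Hdac2 remove acetyl groups from histone tails. They are close relatives that act as the catalytic subunits of the same families of complexes, Sin3, NuRD and CoREST among them, which transcription factors bring to DNA. Although deacetylation is linked to repression, both enzymes are commonly found at the start sites of active genes, many of which lie in CpG islands, stretches rich in the dinucleotide CpG that are mostly free of DNA methylation.

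The lists held 7671 (Bry Hdac1), 7490 (Hd1_loxlox Hdac1), 7519 (Hd2lox Hdac1), 9279 (Bry Hdac2), 9082 (Hd2lox Hdac2) and 5161 peaks (Hd1_loxlox Hdac2). They give a start and an end for each peak and neither height nor counts, so the depth behind each peak is unknown and a region without a peak may still have been bound. Of the 3214 regions in all 3 Hdac1 lists, 48.3% were core, and of the 2283 regions in both required Hdac2 lists, 68.0% were core.

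The sequences below are the 250 bases before a RefSeq start site (GRCm38.p6, 5′ to 3′ on the gene's strand) of 6 genes, each window lying within the merged extent of a core region. They are shown because CpG content is the sequence feature that set the core windows apart from most others, and because the windows differ widely in it. Capitals mark each CpG. Ubtf, a transcription factor for ribosomal RNA genes, lies on the minus strand and its window is chr11:102319593-102319842, before 1 of the 5 start sites in the region. Arid1a, a subunit of the BAF chromatin remodelling complexes (minus strand, chr4:133753986-133754235), and Irs2, an adaptor of the insulin and insulin-like growth factor receptors (minus strand, chr8:11008930-11009179), follow. Gse1, which has been found in CoREST complexes, is read from the plus strand (chr8:120535607-120535856). Acvr2b, an activin receptor (plus strand, chr9:119401928-119402177), and Ltbp1, which binds latent TGF-beta in the matrix (plus strand, chr17:75005279-75005528), close the set.
Ubtf: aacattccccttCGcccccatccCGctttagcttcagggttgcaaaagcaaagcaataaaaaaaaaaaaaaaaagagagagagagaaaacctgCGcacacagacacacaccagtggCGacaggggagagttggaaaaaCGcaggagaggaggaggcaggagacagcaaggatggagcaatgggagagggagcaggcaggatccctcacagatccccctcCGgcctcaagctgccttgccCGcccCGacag
Arid1a: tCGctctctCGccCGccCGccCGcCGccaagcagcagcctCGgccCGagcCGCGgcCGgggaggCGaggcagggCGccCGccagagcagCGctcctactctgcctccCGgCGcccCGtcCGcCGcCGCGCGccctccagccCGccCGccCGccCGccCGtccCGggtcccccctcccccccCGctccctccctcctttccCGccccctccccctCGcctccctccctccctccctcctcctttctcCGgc
Irs2: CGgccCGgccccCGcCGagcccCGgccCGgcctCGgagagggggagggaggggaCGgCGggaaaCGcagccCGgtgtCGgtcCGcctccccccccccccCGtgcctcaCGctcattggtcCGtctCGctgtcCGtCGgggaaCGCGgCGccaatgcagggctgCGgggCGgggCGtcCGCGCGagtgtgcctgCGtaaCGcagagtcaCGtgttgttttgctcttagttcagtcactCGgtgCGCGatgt
Gse1: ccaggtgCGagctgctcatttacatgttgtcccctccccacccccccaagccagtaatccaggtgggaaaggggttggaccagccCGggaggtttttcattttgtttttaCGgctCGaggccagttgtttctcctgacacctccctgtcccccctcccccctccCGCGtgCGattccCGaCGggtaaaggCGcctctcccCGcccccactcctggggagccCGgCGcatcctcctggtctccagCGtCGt
Acvr2b: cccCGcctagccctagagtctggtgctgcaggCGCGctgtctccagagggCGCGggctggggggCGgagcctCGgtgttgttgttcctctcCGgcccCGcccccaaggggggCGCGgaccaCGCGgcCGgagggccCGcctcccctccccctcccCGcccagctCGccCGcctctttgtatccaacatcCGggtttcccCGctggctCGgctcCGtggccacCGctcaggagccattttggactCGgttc
Ltbp1: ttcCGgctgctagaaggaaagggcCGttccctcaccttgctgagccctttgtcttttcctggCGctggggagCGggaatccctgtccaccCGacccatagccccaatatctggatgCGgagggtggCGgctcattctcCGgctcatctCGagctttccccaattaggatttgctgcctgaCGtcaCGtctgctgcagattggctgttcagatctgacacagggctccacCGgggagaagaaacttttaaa

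Arid1a and Irs2 had 33 and 34 CpG in these 250 bases, and Acvr2b had 24. The windows of Gse1, Ltbp1 and Ubtf had 15, 12 and 8. All 3 Hdac1 lists and Bry Hdac2 covered each of the 250 bases before 5 of the genes, while Hd2lox Hdac2 covered 250 before Irs2, 231 before Acvr2b, 169 before Gse1, 99 before Arid1a and 82 before Ltbp1. The exception was Ubtf, whose window, the poorest in CpG, lay outside both Hd2lox peaks and inside those of Bry and of Hd1_loxlox Hdac1. The GC box, GGGCGG on either strand, occurred 7 times before Arid1a, 3 times before Acvr2b and once each before Ubtf, Irs2 and Gse1. Ltbp1 had no GC box and 3 copies of CCAAT, the letters of the NF-Y box, and Irs2 had 2.

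Core regions lay almost entirely at genes. A protein-coding start site, or an outer gene end where the reference gave no start site, was within 1000 bp of 1441 of 1552 core regions, or 92.8% (95% Wilson interval 91.5 to 94.0, which covers counting error only), against 39.4% of all merged regions. This position was not part of the rule. The share was as high where Hdac2 was missing from lists: 92.8% (91.4 to 94.0) of the 1524 regions with all 3 Hdac1 lists and 1 of the 2 required Hdac2 lists, and 94.9% (89.9 to 97.5) of the 138 with neither. Regions with both required Hdac2 lists that missed at least 1 Hdac1 list were at genes in 84.7% of 731 cases. The 21547 regions with fewer than 3 Hdac1 lists were at genes in 31.4% of cases. High gene proximity was therefore shared by the regions of all 3 Hdac1 lists, with overlapping intervals whether or not Hdac2 was called, and no test was made because regions are not replicates.

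Of 21887 protein-coding genes, 11388 had no merged region at their start or end. The core regions touched 1575 of the 21887 (7.2%). Of these genes, 1239 were matched through a start site and 336 through an outer end only, and for 1533 the start or end lay inside the region itself. One gene was assigned to 1305 regions, 2 genes to 134 and 3 or more to 2. Start sites of genes on opposite strands lay together in 78 core regions (5.03%), the arrangement of divergent or overlapping promoters.

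Each core region was compact. The median width of the merged region was 2240.5 bp, with quartiles of 1840 and 2724.25 bp and a range of 1044 to 10123 bp, and all core regions together covered 3.71 Mb. The widest, of 10123 bp, lay at Bahcc1, a nuclear protein with a domain that binds methylated histone H3 (chr11:120229609-120239731), and the next were at Smad6 (7411 bp) and Smad7 (6787 bp), the inhibitory Smads of BMP and TGF-beta signalling. A base covered by all 5 required lists was present in 1535 core regions (98.9%). The shared bases of these regions had a median of 854 bp (quartiles 769 and 982, range 43 to 2563 bp), a median of 40.0% of the region, and fell into more than 1 stretch in 27 regions. The other 17 regions were joined by a chain of overlaps only. The fewest shared bases were 43 at Xkr6, 63 at Fam78b and 91 at Celsr3. The most, 2563 at Smad7, lay in 2 stretches, and the longest unbroken stretch was 2470 bp at Nsd1.

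Peak width in core regions set 1 Hdac2 library apart from the other 4 required libraries. For each list the widest peak in a region was taken. The Hdac1 medians were 1597 bp in Bry, 1707.5 bp in Hd1_loxlox and 1639.5 bp in Hd2lox, and the Hdac2 medians were 1653 bp in Bry and 907 bp in Hd2lox. Bry Hdac2 lay among the 3 Hdac1 lists, and Hd2lox Hdac2 lay below all of them. The means of list medians were 1648 ± 55.7 bp for Hdac1 (SD, n = 3) and 1280.0 ± 527.5 bp for Hdac2 (SD, n = 2). The difference of 368 bp gave p = 0.3 in an exact two-sided permutation test (adjusted p = 0.6 over 4 comparisons), and 3 lists against 2 cannot give less than 0.1. In the same core regions the difference was -5 bp without Hd2lox Hdac2, with Bry Hdac2 the wider, and 741 bp without Bry Hdac2. The sign of the difference thus rested on the Hd2lox Hdac2 list.

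Within Bry, Hdac2 was the wider peak in 824 core regions (53.1%), Hdac1 in 725, and the median difference was 29 bp (quartiles -245 and 300.25). Within Hd2lox, Hdac1 was the wider peak in all 1552 core regions, with a median difference of Hdac2 minus Hdac1 of -645 bp (quartiles -999.25 and -431) and a median ratio of 0.598. Hd2lox Hdac2 peaks were narrow throughout the list: its median over all peaks was 822 bp, against 1310 bp for Bry Hdac2 and 1375 to 1475 bp for the Hdac1 lists. Of its peaks, 2512 had the smallest width in the list, 760 bp, and so did those of 88 core regions. Read depth and the calling settings of this library are not given, and their part in the narrow peaks was not tested.

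Relative to their own lists, core peaks were wide in each of the 5 libraries. The median core peak stood at width percentile 67.2 of Bry Hdac1, 67.8 of Hd1_loxlox Hdac1, 65.6 of Hd2lox Hdac1, 74.1 of Bry Hdac2 and 72.8 of Hd2lox Hdac2. Core regions took in 20.7% to 21.0% of the peaks of the Hdac1 lists and 17.3% of those of both required Hdac2 lists. These values come from the lists that chose the regions and are given with no test.

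**Figure D1:**
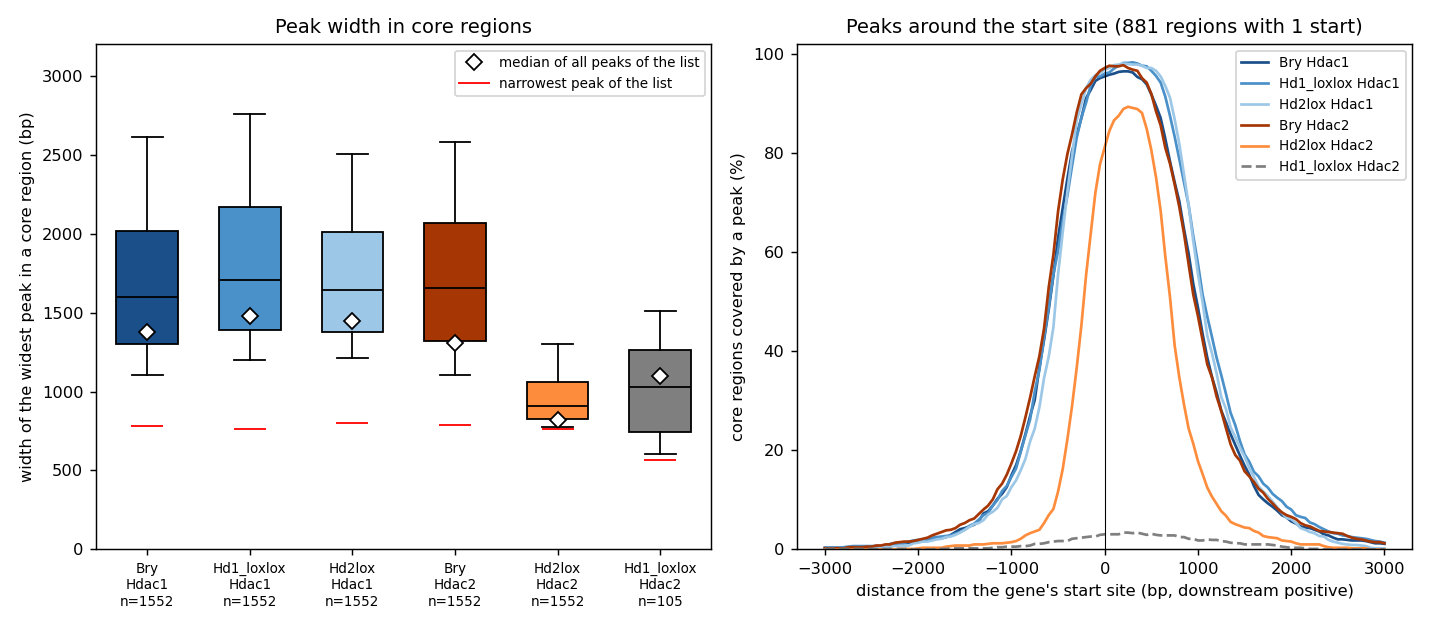
Left, the width in bp of the widest peak per core region in each list (box, quartiles and median; whiskers, 10th and 90th percentiles; diamond, median of all peaks of the list; red line, narrowest peak). Right, the percentage of the 881 core regions with 1 start site that a peak covered at each distance in bp from that site. The Hd2lox Hdac2 list stands below the other required lists in width and is narrower around the start site, while all 5 curves reach their highest values just downstream of it.

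Around the start site the peaks were shifted into the gene. In the 881 core regions with a single start site, peak midpoints lay at medians of 195 bp (Bry Hdac1), 250.5 bp (Hd1_loxlox Hdac1), 264.5 bp (Hd2lox Hdac1), 185.5 bp (Bry Hdac2) and 248.5 bp (Hd2lox Hdac2) downstream. The midpoint was downstream in 74.7% to 88.5% of regions, depending on the list. Median upstream edges ran from -526 to -613 bp in all required lists except Hd2lox Hdac2, where the median was -232 bp, and median downstream edges from 969 to 1061 bp, against 711 bp in Hd2lox Hdac2. The start site itself was inside the peak in 94.8% to 96.6% of regions in those 4 lists and in 80.9% in Hd2lox Hdac2. The mean of midpoint medians was 237 ± 36.8 bp for Hdac1 (SD, n = 3) and 217 ± 44.5 bp for Hdac2 (SD, n = 2), a difference within the spread between lists (exact permutation p = 0.5, adjusted p = 0.6). The downstream edge was at 1034 ± 37.9 bp for Hdac1 and 840.0 ± 182.4 bp for Hdac2, with every Hdac1 list farther out than both Hdac2 lists, which gave the smallest p the design allows (exact permutation p = 0.1, adjusted p = 0.4). For the upstream edge the exact permutation p was 0.6 (adjusted p = 0.6).

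Peaks of the 2 antibodies lay close to each other within a line. The median distance between midpoints of Hdac1 and Hdac2 was 113.5 bp in Hd2lox and 142.75 bp in Bry. Between lines it was 160 to 174.75 bp for pairs of Hdac1 lists, 197.5 bp for the pair of Hdac2 lists, and 164.25 to 193 bp for Hdac1 in one line against Hdac2 in another. The 2 within-line distances were the smallest of the 10 pairs of required lists. The 2 libraries of a line share their cells and may share an input, and the part of either was not tested.

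The core regions with the widest peaks included those of the inhibitor Smad7, the remodelling subunit Arid1a and the receptor Igf1r. Regions were ranked by a score, the mean over the 5 required lists of the width percentile of the region's widest peak, and the 10 highest at genes were those of Smad7, Ubtf, Arid1a, Irs2, Gse1, Trim71, Irf2bp2, Nsd1, Nsd2 and Igf1r, with scores of 98.7 to 99.4. Smad7 blocks TGF-beta receptors, and its widths were 5406 (Bry), 6787 (Hd1_loxlox) and 5378 bp (Hd2lox) for Hdac1 and 3969 (Bry) and 1425 bp (Hd2lox) for Hdac2. The last value is the widest of 3 separate Hd2lox Hdac2 peaks in the region. Hdac1 peaks were the wider ones in both lines compared there, and the Hd2lox Hdac1 peak was the widest of its list.

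At Ubtf (chr11:102316119-102320780) Hdac1 peaks spanned 4260 (Bry), 4662 (Hd1_loxlox) and 3065 bp (Hd2lox), and Hdac2 peaks 3896 (Bry) and 1700 bp (Hd2lox). Arid1a (chr4:133750944-133755178) had Hdac1 peaks of 4039, 3828 and 2926 bp and Hdac2 peaks of 3281 and 1992 bp, in the same order of lines. In both regions the required Hdac2 peak was narrower than the Hdac1 peak of its line. Irf2bp2, a corepressor gene (chr8:126591102-126596212), and Trim71, which encodes an RNA-binding ubiquitin ligase (chr9:114560186-114564931), went the other way in Bry: their Bry Hdac2 peaks of 5074 and 4564 bp were wider than the Bry Hdac1 peaks of 4216 and 4396 bp.

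Nsd1 (chr13:55209767-55213584) and Nsd2 (chr5:33817861-33822006) encode related histone methyltransferases, and their Hd2lox Hdac2 peaks spanned 2889 and 1694 bp. The Nsd1 value stood at percentile 99.99 of the Hd2lox Hdac2 list, so this region was among the widest for Hdac2 in the line with narrow Hdac2 peaks. Igf1r, the receptor for insulin-like growth factor (chr7:67950035-67954633), had Hdac1 peaks of 3660, 4066 and 4243 bp and Hdac2 peaks of 3967 and 1242 bp (Bry and Hd2lox). Irs2, which acts below it (chr8:11006287-11010524), had Hdac1 peaks of 3484, 3203 and 4238 bp and Hdac2 peaks of 3311 and 1719 bp. Both genes of this receptor and adaptor pair were thus among the 10 highest. Both also held an Hd1_loxlox Hdac2 peak, as did Ubtf, Gse1 and Irf2bp2 of the 10. The Irs2 peak of that list was 574 bp wide, at percentile 5.08 of the list.

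**Figure D2:**
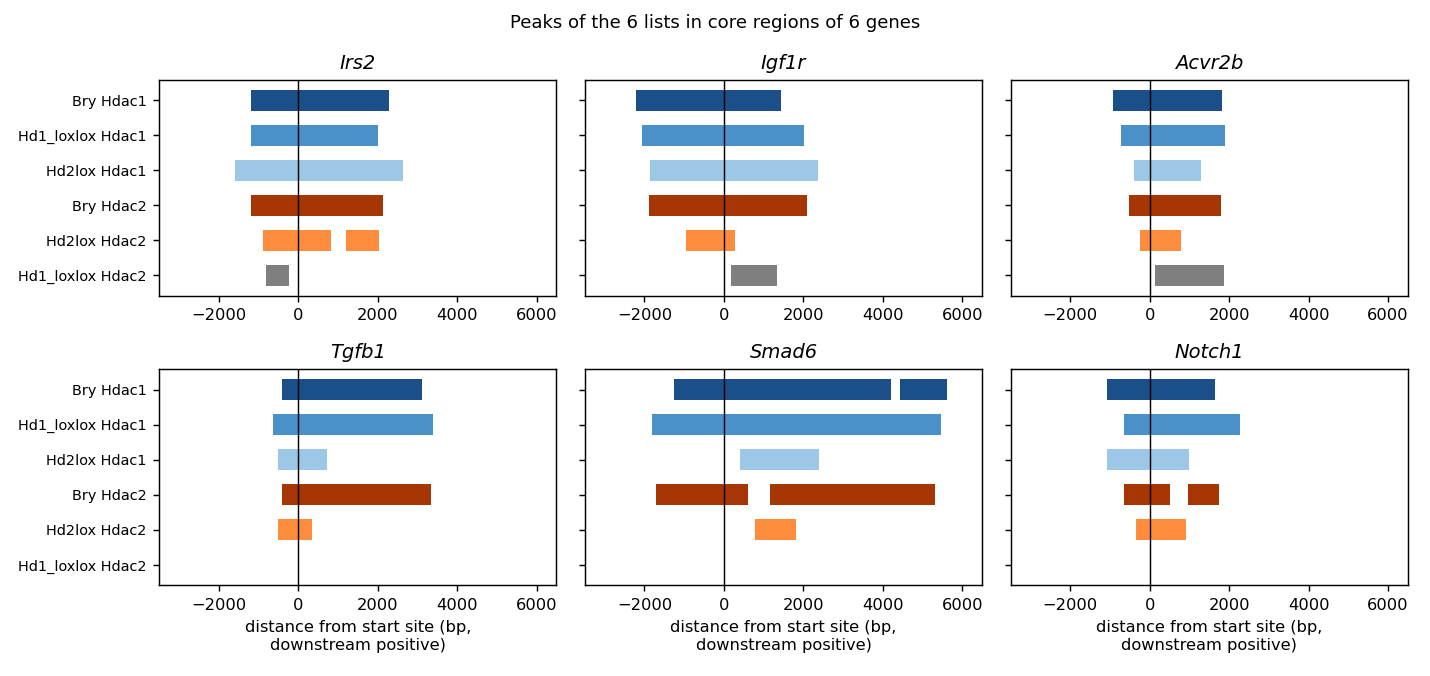
Peaks of the 6 lists in the core regions of 6 genes, drawn as bars against the distance in bp from the gene's start site (downstream positive). Irs2, Igf1r and Acvr2b hold an Hd1_loxlox Hdac2 peak and Tgfb1, Smad6 and Notch1 do not, and at Tgfb1 and Smad6 the Hd2lox peaks are much shorter than those of Bry and Hd1_loxlox.

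The Hd1_loxlox Hdac2 list, which the rule did not use, had a peak in 105 of 1552 core regions, or 6.77% (5.62 to 8.12, Wilson). Among all 20040 merged regions with a peak of any of the other 5 lists the share was 2.19%. It was 4.07% (3.19 to 5.18) in regions with all 3 Hdac1 lists and 1 required Hdac2 list and 2.17% (0.742 to 6.20) in those with neither. Region width moved in the same order, with medians of 2240.5, 2107 and 1792.5 bp, and per Mb of region the peaks numbered 28.6, 18.04 and 11.3. Chromosome also moved with it: on chromosomes 8, 11 and 16, where this list was dense, 38 of 317 core regions (12.0%) held such a peak, against 67 of 1234 (5.43%, 4.30 to 6.84) on the other autosomes. The same shares in regions of all 3 Hdac1 lists that were not core were 7.12% and 3.01% (2.21 to 4.09). The parts of width and chromosome in the order were not tested.

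Most core regions thus had no Hd1_loxlox Hdac2 peak, although the same line had an Hdac1 peak in each of them. The list was the smallest of the 6, and only 2.05% of its own peaks fell in core regions, against 17.3% to 21.0% for the other 5 lists. Of the 5160 merged regions with a peak of this list, only 439 held a peak of any of the other 5 lists. Most of its peaks thus coincided with those of no other library, whether in core regions or elsewhere. Where present, its peaks had a median width of 1028 bp, below the 1099 bp of its whole list, at percentile 41.9. Their midpoints were 307 to 388 bp from those of the other lists at the median, and the start site was inside 27 of 50 such peaks. In 91 of the 105 regions a base was shared with all 5 other lists.

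The 8 highest-scoring core regions with all 6 lists lay at Ubtf, Irs2, Gse1, Irf2bp2, Igf1r, Midn, Plxnc1 and Nol4l. Their Hd1_loxlox Hdac2 peaks spanned 566, 574, 624, 1264, 1169, 814, 1554 and 1553 bp in that order. The smallest, at Ubtf, equals the narrowest width in the list, while those of Plxnc1, a semaphorin receptor (chr10:94941998-94945913), and Nol4l (chr2:153527477-153530895) stood at percentile 90.5 of the list. Midn encodes a nuclear protein that brings other proteins to the proteasome (chr10:80147040-80152403). Of the 105 regions, 92 (87.6%) were at a gene, and their median width was 2621 bp against 2214 bp for the other core regions.

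TGF-beta and activin signalling, which the series' title names, had 7 of 35 genes at core regions (20%, against 7.2% of all protein-coding genes). They were the ligand Tgfb1, its matrix carrier Ltbp1, the receptors Tgfbr1 and Acvr2b, the receptor-binding protein Fkbp1a, the inhibitor Smad7 and the ubiquitin ligase Smurf2, which Smad7 recruits to receptors. At Tgfb1 (chr7:25686372-25690402) Hdac1 peaks spanned 3525 (Bry), 4031 (Hd1_loxlox) and 1256 bp (Hd2lox), and Hdac2 peaks 3755 (Bry) and 844 bp (Hd2lox). The Bry and Hd1_loxlox peaks ran more than 3000 bp into the gene and both Hd2lox peaks ended within 1000 bp of the start site. Ltbp1 (chr17:75004570-75006909) had Hdac1 peaks of 2181, 1823 and 1632 bp and Hdac2 peaks of 2331 and 1159 bp.

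Acvr2b (chr9:119401255-119404069) was the only gene of the list with an Hd1_loxlox Hdac2 peak, of 1735 bp. Its Hdac1 peaks spanned 2734, 2601 and 1688 bp, and its required Hdac2 peaks 2295 and 1018 bp. Fkbp1a (chr2:151541891-151544579) had Hdac1 peaks of 2689, 1850 and 1710 bp and Hdac2 peaks of 1081 and 921 bp. A further 9 genes of the list, the receptors Tgfbr2, Acvr1b and Acvr2a, the signal carriers Smad3 and Smad4, and Smurf1, Ski, Skil and Tgif2, lay at regions of all 3 Hdac1 lists that were not core. With the Hd2lox Hdac2 list left out of the rule the count was 16, so it was this list that parted the 9 genes from the 7. Of the rest, 13 genes lay at other merged regions, among them Smad2 and Tgfb2, and 6 at none, among them Eng and Acvrl1, the endothelial co-receptor and receptor of the pathway.

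In BMP signalling, 5 of 21 genes (23.8%) were at core regions, against 7.2% of all protein-coding genes. They were the ligands Bmp2 and Bmp7, the extracellular regulator Bmper, the signal carrier Smad1 and the inhibitor Smad6. Smad6 (chr9:64016454-64023864) had Hdac1 peaks of 5456 (Bry), 7263 (Hd1_loxlox) and 1971 bp (Hd2lox) and Hdac2 peaks of 4156 (Bry) and 1021 bp (Hd2lox). As at Tgfb1, the Hd2lox peaks were the short ones for both antibodies. At Bmp2 (chr2:133551291-133555602) the Hdac1 peaks spanned 3200, 3959 and 1937 bp and the Hdac2 peaks 2450 and 1048 bp. Bmp7 (chr2:172939258-172941594) held an Hd1_loxlox Hdac2 peak of 1517 bp, wider than both required Hdac2 peaks there (1357 and 1059 bp). The receptors Bmpr1a, Bmpr2 and Acvr1 were among 7 genes at regions of all 3 Hdac1 lists that were not core.

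Wnt signalling had 15 of 32 genes (46.9%) at core regions, and Notch signalling 8 of 20 (40%), against 7.2% of all protein-coding genes. The Wnt genes were the receptors Fzd1, Fzd2, Fzd3, Fzd7, Fzd8 and Fzd10, the co-receptors Lrp5 and Lrp6, the cytoplasmic regulators Dvl3, Axin2, Gsk3b, Dact1 and Dact2, the ubiquitin ligase Znrf3, which removes receptors, and the transcription factor Tcf7l1. With start sites alone standing for genes, the count was 9, and Fzd2 and Fzd8 were among the genes with no start site in the reference. Fzd2 (chr11:102603262-102606620) had Hdac1 peaks of 2030, 2636 and 2044 bp and Hdac2 peaks of 3359 and 974 bp (Bry, Hd1_loxlox, Hd2lox for Hdac1, then Bry, Hd2lox for Hdac2). Axin2, a negative regulator that is itself a Wnt target (chr11:108919250-108922740), had Hdac1 peaks of 2538, 2953 and 2545 bp and Hdac2 peaks of 1663 and 966 bp. The Bry Hdac2 peak was thus the widest at Fzd2 and narrower than all Hdac1 peaks at Axin2. Fzd7 (chr1:59481140-59484301) and Fzd10 (chr5:128598824-128602708) also had their widest peak from Bry Hdac2, of 2856 and 2578 bp. Ctnnb1, which encodes beta-catenin, and Tcf7l2 were at regions of all 3 Hdac1 lists that were not core.

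The Notch genes were the receptors Notch1 and Notch2, the ligands Jag1 and Jag2, the nuclear factors Rbpj and Maml1, and the targets Hes1 and Nrarp. Hes1 (chr16:30062813-30067635) had Hdac1 peaks of 3892 (Bry), 4823 (Hd1_loxlox) and 1823 bp (Hd2lox) and Hdac2 peaks of 4048 (Bry) and 802 bp (Hd2lox). Each Hd2lox list had 2 separate peaks in this region, and the Hd2lox widths given are of peaks that did not overlap each other. At Notch1 (chr2:26501541-26504902) the Hdac1 peaks spanned 2702, 2924 and 2073 bp and the Hdac2 peaks 1166 and 1282 bp, so here the widest peak in Bry was narrower than that in Hd2lox for Hdac2. Jag2 (chr12:112928033-112930846) had its narrowest Hdac1 peak in Bry (1144 bp, against 2639 and 2795 bp). Jag1 (chr2:137113896-137118074) met the rule only through a chain of overlaps: no base there was shared by all 5 lists, and its Hd2lox Hdac2 peak of 787 bp ended upstream of the start site while the Hd1_loxlox Hdac1 peak of 2785 bp lay mostly downstream. The ligand Dll4 and the receptor Notch3 were at other merged regions and Notch4 at none.

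**Figure D3:**
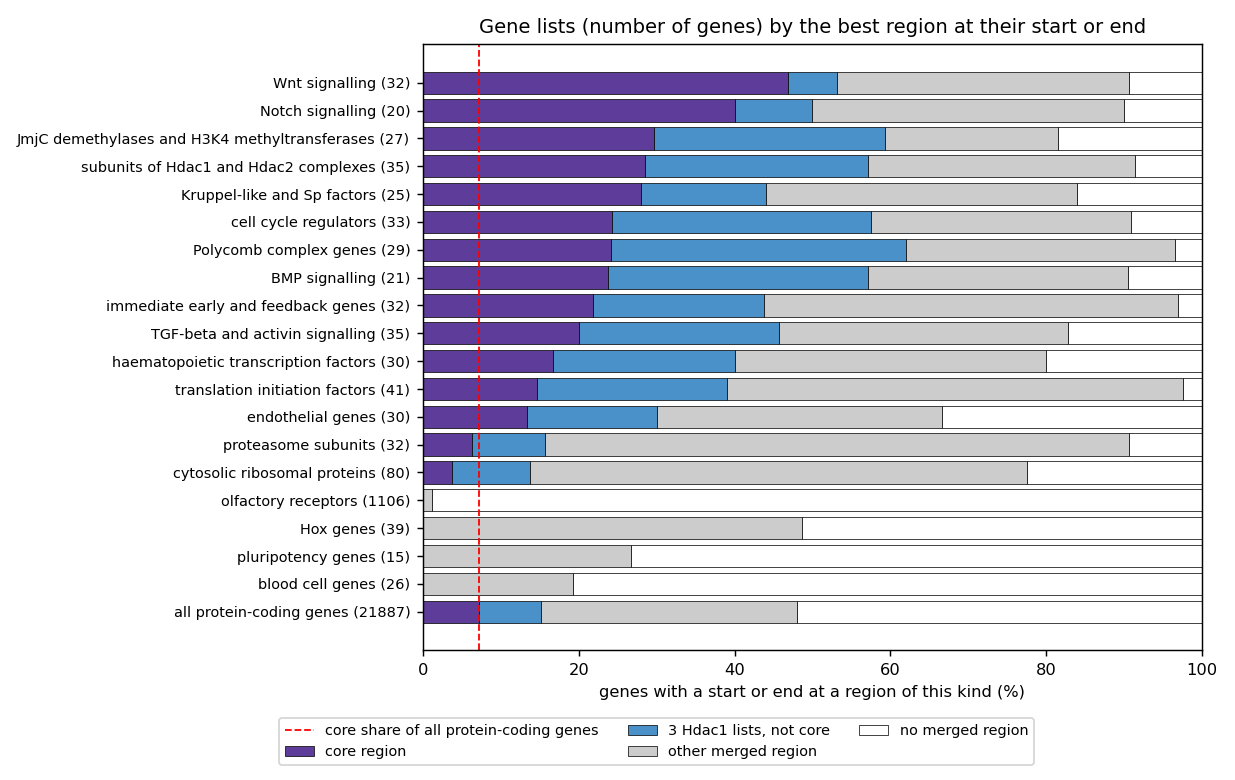
The percentage of protein-coding genes in each list (number of genes in parentheses) by the kind of merged region at their start or end: core, all 3 Hdac1 lists but not core, other, or none. Wnt and Notch genes have the longest core bars, 46.9% and 40%, and 4 lists have no gene at a core region, against 7.2% of all protein-coding genes (dashed line).

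Haematopoietic transcription factors had 5 of 30 genes (16.7%) at core regions, against 7.2% of all protein-coding genes: Kmt2a, Hhex, Cebpb, Cebpa and Zfpm1. Kmt2a, a histone methyltransferase gene (chr9:44880234-44883563), and Zfpm1, which encodes a partner of GATA factors (chr8:122280219-122285515), were the ones with an Hd1_loxlox Hdac2 peak, of 1967 and 655 bp. Hhex (chr19:37433880-37437739) had Hdac1 peaks of 3269, 3860 and 1800 bp and Hdac2 peaks of 3166 and 903 bp. Cebpa (chr7:35117978-35120847) and Cebpb (chr2:167688064-167690512), which encode factors of myeloid differentiation, had Hd2lox Hdac2 peaks of 1429 and 2046 bp, and the latter was wider than the Hdac1 peaks of Bry (1763 bp) and Hd1_loxlox (1886 bp). Regions of all 3 Hdac1 lists that were not core included those of Runx1, Cbfb, Tal1 and Gata2, genes needed for blood cell emergence.

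Endothelial genes were at core regions in 4 of 30 cases (13.3%): the ephrin Efnb2, the transcription factor Ets2, the secreted protein Egfl7 and Rasip1, which acts in vessel lumen formation. Efnb2, a marker of arteries (chr8:8658402-8662232), had Hdac1 peaks of 2257, 2953 and 1675 bp and Hdac2 peaks of 2008 and 941 bp. Egfl7 (chr2:26585141-26587879) and Rasip1 (chr7:45627418-45629829) had their widest peak in Hd1_loxlox Hdac1, 2739 and 2412 bp, against 1160 to 1651 bp in the other Hdac1 lists. The surface and junction genes Tek, Tie1, Cldn5 and Esam were among 10 at no merged region, and Kdr, Cdh5 and Pecam1 among 11 at other regions. None of 26 blood cell genes, of 15 pluripotency genes or of 39 Hox genes was at a core region, and none of 1106 olfactory receptor genes was either. Over all protein-coding genes the share was 7.2%, and at that share few genes of the shorter lists would be at core regions.

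Genes of the deacetylase complexes themselves were at core regions in 10 of 35 cases (28.6%), against 7.2% of all protein-coding genes. These were Hdac1, the Sin3 complex subunits Sap30, Sap30l, Suds3, Arid4a, Ing1 and Ing2, the NuRD subunit Cdk2ap1, and Rcor2 and Rcor3 of CoREST. Ing1, whose protein reads methylated histone H3 (chr8:11554748-11559171), had Hdac1 peaks of 4416, 3406 and 4058 bp and Hdac2 peaks of 4074 and 845 bp. Its Hd2lox peaks thus ranged from among the widest of the list for Hdac1 to percentile 58.0 for Hdac2. Rcor2 (chr19:7266936-7270180) had Hdac1 peaks of 2423, 2857 and 1706 bp and Hdac2 peaks of 2531 and 982 bp. At Hdac1 itself the Hdac1 peaks spanned 1035, 1809 and 1762 bp and the Hdac2 peaks 2123 and 907 bp. Hdac2 was at a region of all 3 Hdac1 lists that was not core, as were Kdm1a and Rcor1.

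Other chromatin regulators were also at core regions, where 7.2% of all protein-coding genes lay. Polycomb genes had 7 of 29 (24.1%), among them Rnf2, Pcgf5 and Cbx2 of the first complex and Eed, Aebp2 and Jarid2 of the second. A list of JmjC demethylases and of histone lysine methyltransferases with their partner proteins had 8 of 27 (29.6%). These were Kdm2a, Kdm3b, Kdm5b, Kdm7a, Riox1, Kmt2a, Kmt2c and Wdr5, the last a partner and not an enzyme. Ezh2 and Suz12, which encode core subunits of the second Polycomb complex, were at regions of all 3 Hdac1 lists that were not core. At Eed (chr7:89979270-89981618) the Bry peaks were wide for both antibodies, 2341 and 2322 bp, and the Hd1_loxlox Hdac1 peak was 1096 bp, at percentile 12.9 of its list.

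Cell cycle regulators had 8 of 33 genes (24.2%) at core regions, against 7.2% of all protein-coding genes. They were the E2F factors E2f1, E2f2, E2f3, E2f5, E2f6, E2f7 and E2f8 and the phosphatase Cdc25a. No cyclin or cyclin-dependent kinase of the list was core. Ccne1, Ccne2, Ccna2, Cdk6 and E2f4 were among 11 genes at regions of all 3 Hdac1 lists that were not core. E2f3 (chr13:29983331-29987067) had the highest score of the group, 91.6, with Hdac1 peaks of 1810, 2949 and 2281 bp and Hdac2 peaks of 3328 and 1119 bp. The scores of the other 7 ran from 36.4 to 64.6, below E2f3 in each case.

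Krüppel-like and Sp factors had 7 of 25 genes (28%) at core regions, against 7.2% of all protein-coding genes. All 7 were Klf genes: Klf2, Klf3, Klf5, Klf9, Klf13, Klf14 and Klf15. Klf13 (chr7:63936348-63940374) had Hdac1 peaks of 2883, 3599 and 2808 bp and Hdac2 peaks of 4027 and 2096 bp, at percentiles of 97.3 to 99.9 of their lists. Klf2, an endothelial factor that responds to flow (chr8:72318295-72321258), had Hdac1 peaks of 2324, 2964 and 1917 bp and Hdac2 peaks of 1900 and 1062 bp. Immediate early and feedback genes had 7 of 32 (21.9%), led by Zfp36l2, which encodes an RNA decay factor (chr17:84184659-84189136), and Ier5l (chr2:30469480-30474938), both with a score of 98.4 or more. Jund, Ier5, Dusp2, Dusp5 and Mcl1 were the others. Fos, Junb and Myc were at other merged regions.

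Among housekeeping lists, translation initiation factors had 6 of 41 genes (14.6%) at core regions, above the 7.2% of all protein-coding genes. Proteasome subunits had 2 of 32 (6.25%), near that share, and cytosolic ribosomal proteins 3 of 80 (3.75%), below it. Genes at no merged region numbered 1 of 41, 3 of 32 and 18 of 80 in these lists, against 11388 of all 21887. The shares therefore rest on unlike bases. The ribosomal protein genes were Rpl7, Rps19 and Rpl14, and the Rpl7 region also held an end of Rdh10. A further 51 ribosomal protein genes were at merged regions other than core or 3 Hdac1 lists. Ribosomal protein genes have many near-identical pseudogene copies, and how reads were shared among copies is not given in the sources used here.

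Core regions away from the protein-coding starts and ends used here numbered 111, and 91 of them overlapped the body of a protein-coding gene. For genes with no start site in the reference, such as Kctd1, only the outer ends were used. A start site inside such a gene would therefore not have been seen. Those with the highest scores included regions inside Cpeb2, Kctd1, Ywhaz and Agap1. In Cpeb2, a regulator of translation, the region (chr5:43232001-43235672) began 6652 bp from the nearer gene end, and its 5 lists shared only 197 bp. In Ywhaz, which encodes a phosphoserine-binding adaptor, it (chr15:36791876-36794526) lay 8458 bp from a gene end and shared 1506 bp. The Agap1 region (chr1:89579599-89582329) was 124788 bp from a gene end and had peaks in all 6 lists, with an Hd1_loxlox Hdac2 peak of 1536 bp. Of the 111 regions, 23 were at another annotated gene, 9 overlapped neither kind, and 13 held an Hd1_loxlox Hdac2 peak. Their median width, 2213 bp, was close to the 2242 bp of core regions at genes. The hairpins of 15 of 1005 microRNAs overlapped core regions, and those of Mir193a and Mir760 did so in regions with no protein-coding start or end.

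Promoter sequence in core regions was rich in CpG. Of 21230 RefSeq windows of 300 bp (250 before to 50 after a protein-coding start site), 1421 from 1205 genes lay inside core regions. Their median GC content was 70% and their median CpG number 32, against 56.3% and 13 over all windows and 50.3% and 5 over the 12158 windows inside no merged region. A window was called CpG-rich when its ratio of observed to expected CpG was above 0.6 and its GC content above 55%. This held for 89.9% of core windows (88.2 to 91.3, Wilson), 85.7% (83.9 to 87.4) of the 1543 windows in regions with 3 Hdac1 lists and 1 required Hdac2 list, 88.0% (81.4 to 92.5) of the 133 with neither, 72.0% (70.8 to 73.1) of the 5975 in other merged regions and 13.3% (12.7 to 13.9) outside regions. The step between core regions and the regions that lacked 1 Hdac2 list was thus small beside the step to windows without any region. Windows of 1 gene overlap and are not independent, and wide regions take in more windows. The core windows poorest in CpG were those of Strn4 with 1 CpG, and of Txndc5 and Vav2 with 2.

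**Figure D4:**
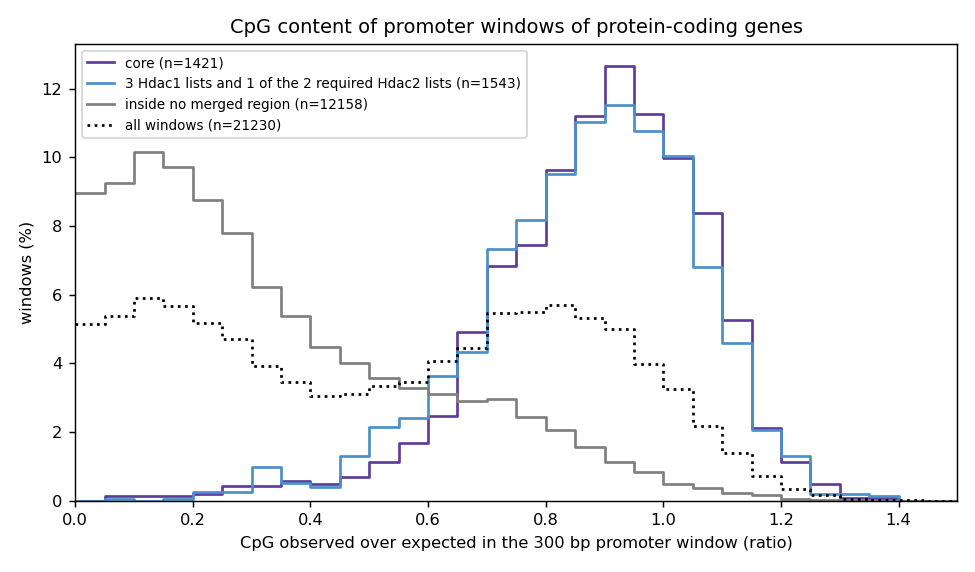
The distribution of the ratio of observed to expected CpG over 300 bp promoter windows, as a percentage of windows per bin, for core regions, regions with all 3 Hdac1 lists and 1 required Hdac2 list, windows inside no merged region, and all windows. Core windows centre on a median of 0.906 and nearly coincide with the compared regions at 0.890, while windows inside no region centre on 0.270.

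Short motifs were searched on both strands of the same windows as a description of letters. The GC box GGGCGG, bound by Sp and Klf factors, was in 81.6% of core windows, 80.2% of windows in regions lacking 1 Hdac2 list and 46.2% of all windows. The E2F letters GGCGGGAA, which can overlap a GC box, were in 5.42% of core windows, 4.67% of those lacking 1 Hdac2 list and 2.85% of all. The E-box CACGTG was in 12.2%, 11.9% and 7.84% of windows, in the same order. The ETS letters CCGGAAG were in 13.8% (12.1 to 15.7) of core windows, 18.4% (16.6 to 20.4) of those lacking 1 Hdac2 list, 21.2% (20.2 to 22.2) in other merged regions and 11.6% of all. They were thus less frequent in core windows than in windows of the other regions. Several other sets of letters were rarer in core windows than over all windows: 2.46% against 9.66% for the GATA letters AGATAA, 6.83% against 15.0% for the RUNX letters TGTGGT, and 3.17% against 12.6% for TATAAA. In windows lacking 1 Hdac2 list the same letters were in 3.24%, 9.59% and 3.76%, so they were rarer there too than over all windows. The SMAD letters GTCTAGAC were in 0.211% of core windows, or 3 of 1421, and in 0.226% of all. Base composition differs between these windows, and its part in the motif shares was not tested.

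Core regions were unevenly spread over chromosomes. Chromosome 8 held 136 core regions, or 13.04 per 100 protein-coding genes, 1.74 times the median of the other autosomes (7.48). The peaks of single lists moved with it in Bry and Hd1_loxlox and less or not at all in Hd2lox: on chromosome 8 the ratio of peaks per gene was 1.74 for Bry Hdac1, 1.72 for Bry Hdac2, 1.87 for Hd1_loxlox Hdac1, 3.28 for Hd1_loxlox Hdac2, 1.14 for Hd2lox Hdac1 and 0.966 for Hd2lox Hdac2. The Hd1_loxlox lists were also dense on chromosomes 11 and 16. Their peaks per 100 genes there were 63.1 and 48.0 for Hdac1 and 49.8 and 49.2 for Hdac2. The medians of autosomes other than 8 were 33.8 and 20.1. Bry Hdac1 had 48.0 on chromosome 11 and 35.8 on chromosome 16, against a median of 35.7. Core regions numbered 8.20 and 7.22 per 100 genes on chromosomes 11 and 16. Neither the copy number of these chromosomes in the lines nor input was analysed here. Irs2, Gse1 and Irf2bp2, all among the 10 highest scores, are on chromosome 8, as are Ing1, Ing2, Klf2, Jund, Efnb2, Zfpm1 and Smad1. Chromosome 7 had the fewest core regions per gene of the autosomes, 4.19 per 100 genes, although it held 85 of them.

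**Figure D5:**
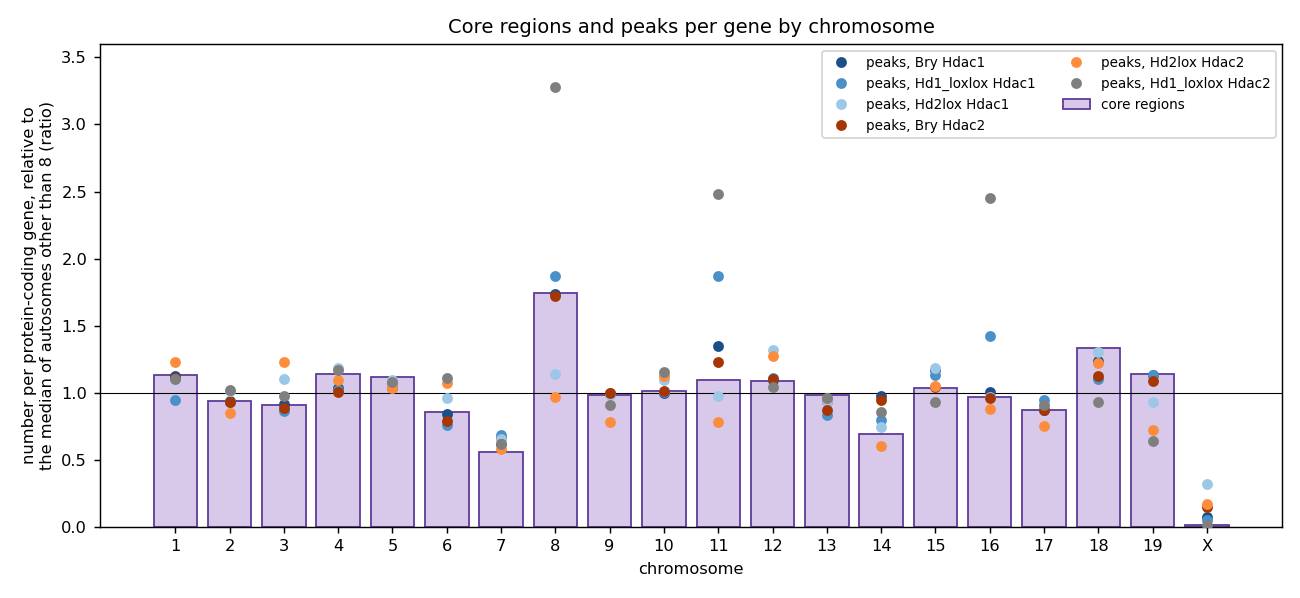
Core regions (bars) and peaks of each list (points) per protein-coding gene on each chromosome, as a ratio to the median of the autosomes other than 8. Chromosome 8 has the tallest bar, 1.74, the Hd2lox points there lie at 1.14 and 0.966, and the X chromosome is near 0.

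The X chromosome had 1 core region for 966 protein-coding genes and the Y chromosome none. That region lay at Med14, a subunit of the Mediator complex (chrX:12761018-12762817), with Hdac1 peaks of 1281, 1546 and 1758 bp and Hdac2 peaks of 1325 and 893 bp. Every list was sparse on X, with 0.207 to 11.5 peaks per 100 genes, against medians of 20.1 to 46.9 on autosomes other than 8. The Hd2lox lists had the most X peaks of their antibody, 11.5 for Hdac1 and 7.97 for Hdac2 per 100 genes.

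Regions just outside the rule, with 4 of the 5 required lists, missed Hd2lox Hdac2 in 1395 cases, Bry Hdac1 in 259, Hd1_loxlox Hdac1 in 197, Bry Hdac2 in 129 and Hd2lox Hdac1 in 12. The Hd2lox Hdac2 list thus set most of the limit, and without it the rule gave 2947 regions and 3038 genes. The missing peak was seldom nearby: the nearest peak of the absent list was at a median of 53.1 to 91.9 kb, and within 5000 bp in 48 of the 1395 regions that missed Hd2lox Hdac2. The median width of those 1395 was 2136 bp, below the 2240.5 bp of core regions. The narrowest core regions, just inside the rule, were 1 with no gene start or end (1044 bp, chr9:110280800-110281843) and those at Marchf8 (chr6:116337599-116338735) and BC004004 (chr17:29268422-29269622).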

How the data were processed

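Hdac1 (Diagenode antibody) and Hdac2 (abcam antibody) were profiled by ChIP-seq in haemogenic endothelium of 3 ES lines, with 1 library per line and antibody. The build mm10 and the tools Bowtie2 2.2.9, SAMtools 1.3.1, MACS2 2.1.1.20160309 and bcl2fastq are named in the submitters' processing notes. Peak calling settings and any use of input in calling are not stated there. The authors deposited peak starts and ends in bp, 1 list per library (46202 peaks in all), with no score or count, so replicates were not pooled by the authors and depth is unknown.

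From these lists, peaks on chromosomes 1 to 19, X and Y were merged at an overlap of 1 bp and positions are given 1-based. Genes, start sites and promoter windows came from RefSeq tables of GRCm38.p6, the same assembly as mm10. Start sites were given for 17492 of 21887 protein-coding genes, and both outer gene ends stood for the others, within 1000 bp. None was given on chromosome 18, so its 51 core regions, those of Smad7, Fzd8 and Kctd1 included, are absent from the promoter windows, from the regions with 1 start site and from counts by start sites only. No genome sequence was used. The members and the gene lists were chosen with earlier results of these data known. Named are genes at the 10 core regions of highest score at a gene, at the 8 of highest score with an Hd1_loxlox Hdac2 peak, at the 5 of highest score at no gene start or end, and the core genes of 19 gene lists, with values for at most 5 per list. Hdac1, Smurf2 and other genes named without being among those 5, and genes named as not core, as poorest in CpG, as widest, as narrowest, as least overlapping or as the single region on X, were chosen after their values were seen. Some genes that these rules name are not reported here. Sequences shown are 6 windows that lay inside a core region, taken from the top of the first, the second and the last of these groups. Other genes of the first group, Irf2bp2 and Igf1r among them, also had such a window and are not shown.

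List medians were compared by exact two-sided permutation of the difference of means, 3 Hdac1 lists against 2 Hdac2 lists, with Benjamini-Hochberg adjustment over 4 comparisons. Hdac1 and Hdac2 lists with the same number come from the same cell line, by the labels, so they are paired; too few lines had both lists in the rule for a check of correlation. Nothing in the labels says that lines were grown in separate experiments. A p-value therefore reflects only how these libraries vary, and that variation may be technical. Shares have 95% Wilson intervals. Merging, gene assignment, shared bases and the permutation test were tested on simulated data. Python 3.11.15, pandas 2.3.3, numpy 2.4.6, SciPy 1.17.1 and matplotlib 3.10.9 were used. Alternatives were another merging distance or overlap, wider peaks only, other gene windows and positions, and leaving out each list.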

Additional observations from a re-analysis of the deposited data

Results flagged for a closer look

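The list median of peak width in core regions, taken as Hdac2 minus Hdac1, was 56 bp in Bry and -732.5 bp in Hd2lox, so the 2 lines went in opposite directions. Each line gave 1 pair of lists, and the difference between the lines was not tested.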

How the results depend on the processing

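The number of core regions was 1056 with the widest 75% of each list and 1535 with a base shared by all 5 lists. Over the alternatives that leave out 1 required list it ran from 1562 to 2947, and the number of genes at core regions from 1581 to 3038, both highest without Hd2lox Hdac2. The share of core regions at genes ran from 91.5% to 92.9% when lists were left out, and was 94.3% with all annotated genes. With both outer ends of every gene, an alternative chosen after seeing the data, it was 86.3%, and with start sites only, also chosen then, 73.8%. The share with an Hd1_loxlox Hdac2 peak was 5.59% among the widest 75% and 5.56% to 6.63% when lists were left out. The width difference of Hdac1 minus Hdac2 ran from 8.67 to 724.3 bp when a list was left out of both the rule and the comparison, which also changes the regions. With the core regions kept, an alternative chosen after seeing the data, it ran from -5 bp without Hd2lox Hdac2, the single reversed value, to 741 bp without Bry Hdac2. It was 452 bp with the Hd1_loxlox Hdac2 list, and in the fit with the replicate block, pairing the lists of Bry and of Hd2lox, it was 338 bp (exact sign-flip permutation p = 1, smallest possible 0.5); the pairing changed no call. No test could pass 0.05 in a design of this size, so those p-values say nothing about stability. Read depth and input were not analysed here, and an absent peak is not shown to be absent binding.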

Other observations

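Regions that missed 1 of the 5 required lists were at a protein-coding gene start or end in 83.3% to 93.0% of cases, by the missing list. The share was 93.0% (91.6 to 94.3, Wilson) of the 1395 without Hd2lox Hdac2 and 91.4% of the 197 without Hd1_loxlox Hdac1. It was 89.9% (83.5 to 94.0) of the 129 without Bry Hdac2, an interval that overlaps the first. The lowest were 83.8% of the 259 without Bry Hdac1 and 83.3% of only 12 without Hd2lox Hdac1, and no test was made. Among core windows with an Hd1_loxlox Hdac2 peak the E-box letters CACGTG were in 20.2% (13.04 to 30.04, Wilson) of 84 windows, against 12.2% of all core windows, and the CCAAT letters in 20.2% against 29.6%. These 84 windows came from 70 genes, and the shares were noticed among 14 motifs, with no test.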
